A study of Rattus norvegicus with 12 samples.

Results

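The genes described here are 10 members of the BCL2 family, whose proteins decide whether the outer mitochondrial membrane stays intact or opens during apoptosis: Bcl2, Bcl2l1, Bcl2l2 and Mcl1, which protect the cell, the pore-forming effectors Bax and Bak1, and the BH3-only genes Bad, Bid, Bbc3 and Bcl2l11. They were chosen by gene symbol, as the feature carrying that symbol alone with the highest mean over the 12 arrays. Each symbol had 1 such feature (a transcript cluster, the array's summary of the probes of a gene), so the 10 genes are 10 of the 70580 features of the table. Expression was read in PC12 cells, a rat line from an adrenal chromaffin tumour, which carry a GFP-tagged exon-1 fragment of mutant huntingtin with 74 glutamines under doxycycline control, on Affymetrix rat whole-transcript arrays. The 4 groups held 3 arrays each: non-induced cells given DMSO, and induced cells given DMSO as vehicle, 10 µM Compound 3 or 10 µM Compound 6. The compounds are guanabenz analogues and were given for 48 h. The fragment's gene was present in all groups. Only induced cells received doxycycline (1 µg/ml), so effects of the fragment and of the inducer cannot be told apart. The labels number the arrays of a group but do not say that they came from separate cultures, so the p-values rest on a spread between samples that may be technical.

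Protection and killing in this family rest on direct binding. Bcl2, Bcl2l1 (which encodes Bcl-xL), Bcl2l2 (Bcl-w) and Mcl1 hold Bax and Bak1 in check in their grooves, and BH3-only proteins, made or activated under stress, fill the grooves or act on Bax and Bak1 directly. Freed Bax and Bak1 assemble in the outer membrane and release cytochrome c, which starts the caspase cascade. In sympathetic neurons and in neuronally differentiated PC12 cells, withdrawal of nerve growth factor is known to raise Bcl2l11 (Bim) and to kill through Bax.

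Medians of the arrays ran from 4.61 to 4.70 in log2 units, and any pair of arrays correlated at 0.995 or more. The 95th percentile was 10.29 to 10.32 on the non-induced arrays, 10.32, 10.18 and 10.09 on the vehicle arrays of induced cells, and 10.18 to 10.27 on the compound arrays. The defining markers of chromaffin cells were present, from Dbh (mean 7.31), which makes noradrenaline, to Chgb (12.31), a granule protein, but they differed between the groups. The mean of the 7 that had a feature was 10.84 to 11 on the non-induced arrays, 9.90 to 10.24 with vehicle, 9.11 to 9.78 with compound 3 and 9.98 to 10.31 with compound 6. On induction 6 of the 7 fell, Dbh by 1.22 ± 0.17 (adjusted p = 0.00104), and Th, which makes L-DOPA, did not pass (-0.64 ± 0.25, adjusted p = 0.166). In these bulk samples fewer cells of a kind and less RNA per cell cannot be told apart. Marker means of other cell types moved little: group means were 5.53 to 5.58 for 4 fibroblast markers, 5.16 to 5.23 for 2 of Schwann cells, 4.31 to 4.34 for 3 of endothelium and 4.28 to 4.38 for 2 of leukocytes. Array signals carry no depth, and precision is set by how many arrays there are, with a median standard error of 0.07 log2 units for a difference.

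The comparison of induced with non-induced cells, both in DMSO, asks how these genes differ on induction, that is, with the fragment and doxycycline together. Among the protectors Bcl2l1 fell, while both effectors, Bax and Bak1, rose. Of the BH3-only genes Bid rose and Bcl2l11 fell. The changes were small, between 1.192-fold and 1.254-fold. Differences are given in log2 units with the standard error of limma's fit, from 3 arrays per group, and a gene was called where the p-value, adjusted by Benjamini-Hochberg over all features tested, was under 0.05. In this fit 5 of the 9 members that passed the filter on low values were called, 3 higher and 2 lower, where 9.06% of all 34422 features tested were called, 4.20% higher and 4.86% lower. All 5 lay above the 75th percentile of mean signal, and with the filter set there 3446 of 17216 features were called. The shares over all features, here and below, include many features of lower signal and understate those of features with like signal. At an unadjusted p under 0.05 there were 6 members, against 21.0% of all features, and in 7 the groups did not overlap, against 22.7%. The members' median difference was 0.07, and that of all features was 0.01. Bcl2 lay under the filter. The part of the lower chromaffin markers in these differences was not tested.

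Bcl2l1 makes Bcl-xL, the protector that neurons depend on, and the array feature does not separate Bcl-xL from its short splice form. Its log2 level was 7.69, 7.56 and 7.66 on the non-induced arrays and 7.25, 7.31 and 7.37 on the vehicle arrays of induced cells. The 9 induced arrays, with or without compound, lay between 7.15 and 7.37, and all were below the lowest non-induced array. Bcl2l1 fell by 0.33 ± 0.05 on induction (95% interval -0.44 to -0.22, adjusted p = 0.00176), and non-induced cells had 1.25-fold more signal. This call was made under all 22 alternative settings, with differences from -0.36 to -0.30 and a highest adjusted p of 0.0324.

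Bcl2l2, which makes Bcl-w, stood at 6.02, 5.85 and 5.91 without induction and at 6.09, 6.06 and 6.12 with it. These groups did not overlap, but the difference of 0.16 ± 0.05 did not pass (adjusted p = 0.0817). It passed with array weights (adjusted p = 0.0389) and without non-induced array 1 (0.21, adjusted p = 0.0315). Mcl1, whose protein is short-lived and needs steady synthesis, stood at 10.29, 10.18 and 10.29 without and at 10.21, 10.32 and 10.25 with induction, and the groups overlapped. Its difference was 0.01 ± 0.05 (95% interval -0.11 to 0.12, adjusted p = 0.961). Over 22 alternatives the Mcl1 difference ran from -0.03 to 0.14, changed sign in 3 and was called in 0. Bcl2, the founding member, had values from 3.14 to 3.50 on the 12 arrays, under the filter value of 4.63, and its mean of 3.34 was higher than that of only 30.3% of the array's 1153 negative control features, whose median was 4.21. Its difference, fitted without the filter, was 0.01 ± 0.09 (95% interval -0.18 to 0.21, adjusted p = 0.972), so at this signal a change of Bcl2 was not detectable.

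Bax, a cytosolic effector that moves to mitochondria when activated, stood at 8.42, 8.32 and 8.16 without and at 8.53, 8.63 and 8.51 with induction. The groups did not overlap, and the rise was 0.26 ± 0.07 (95% interval 0.11 to 0.40, 1.195-fold, adjusted p = 0.0345). Bak1, the effector that sits in the mitochondrial membrane, stood at 8.79, 8.74 and 8.68 without and at 8.99, 9.03 and 8.95 with induction. It rose by 0.25 ± 0.05 (95% interval 0.14 to 0.36, 1.19-fold, adjusted p = 0.00862), again without overlap. The Bax call was lost in 9 of 22 alternatives. Its adjusted p was 0.0823 without non-induced array 2, 0.132 without non-induced array 3, 0.135 without vehicle array 2, 0.0511 without vehicle array 3, and 0.0526 and 0.0510 without compound 6 arrays 1 and 3. After median scaling of the arrays it was 0.0917. The Bak1 call was lost in 1, the fit of those 2 groups alone (adjusted p = 0.0535).

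Bid, which caspase-8 cleaves into an active form that links death receptors to mitochondria, stood at 8.39, 8.35 and 8.35 without and at 8.52, 8.72 and 8.68 with induction. It rose by 0.28 ± 0.07 (95% interval 0.13 to 0.43, 1.21-fold, adjusted p = 0.0265), without overlap. The call was lost in 6 of 22 alternatives. It was lost without non-induced array 2 (adjusted p = 0.0855), non-induced array 3 (0.0920), vehicle array 2 (0.113) or vehicle array 3 (0.0797). No filter (0.0670) and the fit of those 2 groups alone (0.0729) lost it too. Bcl2l11, the gene of Bim, ran the other way, from 7.97, 7.80 and 7.84 without to 7.58, 7.61 and 7.58 with induction. It fell by 0.28 ± 0.06 (95% interval -0.40 to -0.16, adjusted p = 0.00815), with 1.21-fold more signal in non-induced cells and no overlap. Its call was lost only in the fit of those 2 groups alone (adjusted p = 0.0534). The other BH3-only genes did not pass. Bad, whose protein is held inactive by phosphorylation, stood at 6.63, 6.60 and 6.63 without and at 6.68, 6.65 and 6.75 with induction (difference 0.07 ± 0.04, adjusted p = 0.391). Bbc3, which encodes PUMA, stood at 6.65, 6.83 and 6.77 without and at 6.67, 6.67 and 6.96 with induction (difference 0.02 ± 0.08, adjusted p = 0.933), where vehicle array 3 lay above all other arrays.

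Without vehicle array 2 or 3, or without non-induced array 2 or 3, 3 of the 9 members were called on induction in place of 5. In the fit of those 2 groups alone 1 was called, and 3 were with no filter on low values.

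**Figure D1:**
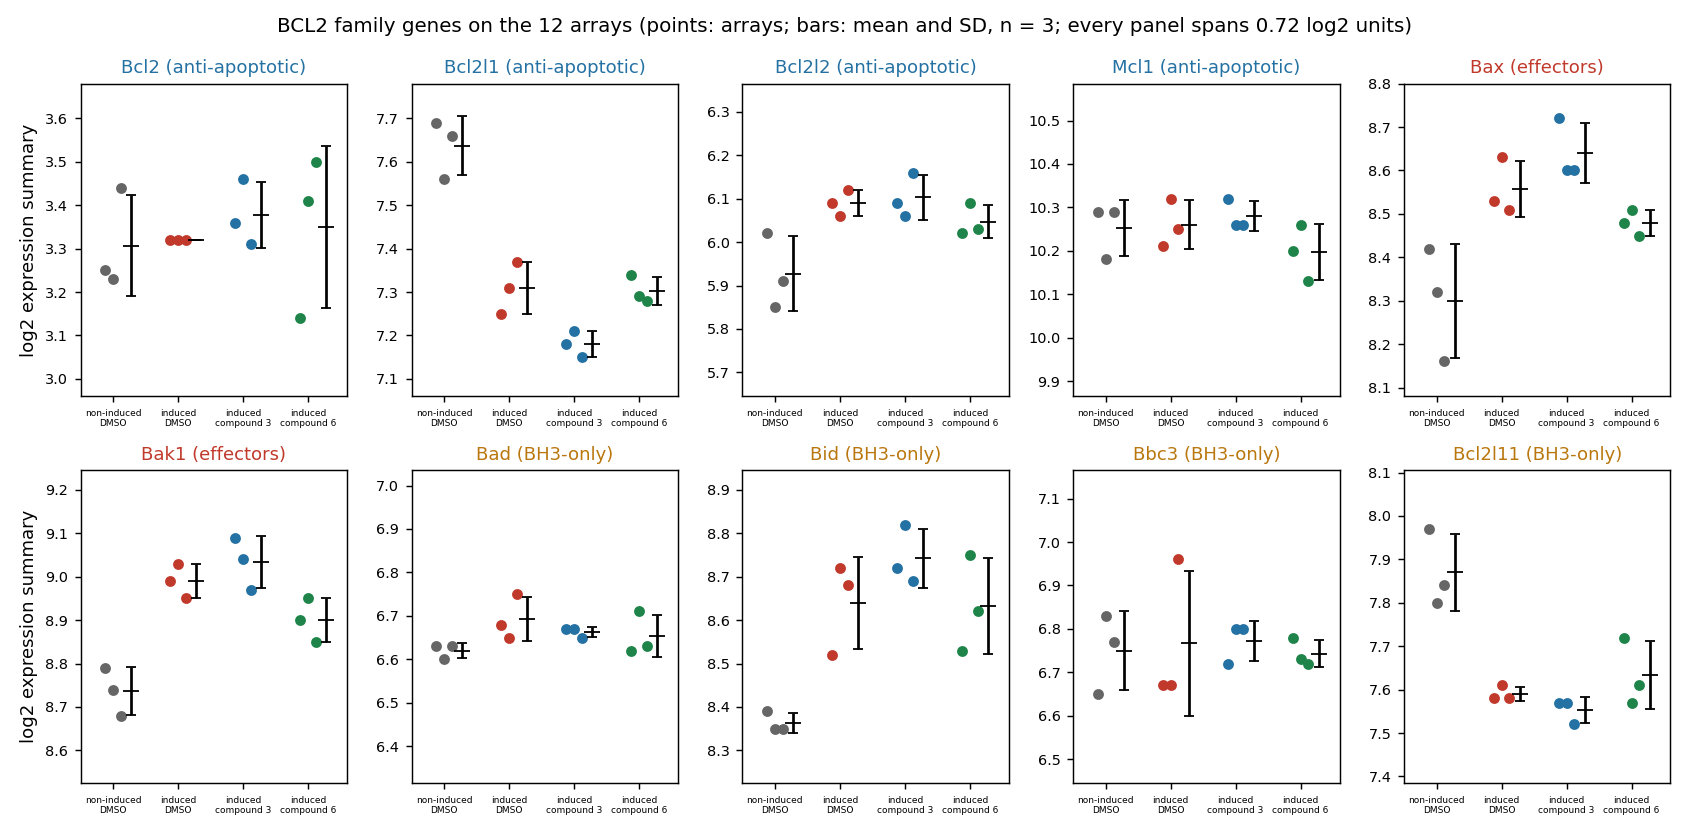
Log2 expression summaries of the 10 BCL2 family genes on each of the 12 arrays, by group, with the mean and SD of 3 arrays beside the points and an equal span of log2 units in every panel. Bcl2l1 and Bcl2l11 lie lower, and Bax, Bak1 and Bid higher, on all 9 induced arrays than on the 3 non-induced arrays.

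The induced arrays with compounds showed the same sides. For 5 of the 9 members all 9 induced arrays lay on 1 side of the 3 non-induced arrays, above for Bax, Bak1 and Bid and below for Bcl2l1 and Bcl2l11, where 13.6% of all features separated in this way. In limma's F-test across the 4 groups these 5 passed, against 10.3% of all features, with adjusted p-values of 0.000795 for Bcl2l1, 0.00938 for Bak1, 0.00977 for Bcl2l11, 0.0159 for Bid and 0.0270 for Bax. The F-test includes the induction difference of the same arrays, and both readings reuse the 3 non-induced arrays. Neither is separate from the calls on induction. Leaving out non-induced array 2 or 3 left 3 and 2 members passing that test. Because an array carries effector and protector signals side by side, Bax and Bak1 were also set against each of the 3 measured protectors within each array, as a description without a test. A difference between signals of separate genes is not a ratio of RNA amounts, and only its shift between groups can be read. Bax minus Bcl2l1 was 0.73, 0.76 and 0.50 on the non-induced arrays and 1.28, 1.32 and 1.14 on the vehicle arrays of induced cells. It was 1.54, 1.39 and 1.45 with compound 3 and 1.14, 1.22 and 1.17 with compound 6. Every induced array lay above every non-induced array, by a mean of 0.58 log2 units with vehicle, 0.80 with compound 3 and 0.51 with compound 6. This separation follows from Bax lying above and Bcl2l1 below on all 9 induced arrays, and it adds no further result. For Bak1 minus Bcl2l1 the mean shifts were 0.58, 0.75 and 0.50. These shifts hold the fall of Bcl2l1 itself, and against the other protectors they were smaller. Bax minus Mcl1 shifted by 0.25 with vehicle, 0.31 with compound 3 and 0.24 with compound 6, and Bax minus Bcl2l2 by 0.09, 0.16 and 0.06. For Bak1 the shifts were 0.25, 0.27 and 0.22 against Mcl1 and 0.09, 0.12 and 0.04 against Bcl2l2. Against Bcl2l2 the induced and non-induced arrays overlapped for both effectors. Bax minus Bcl2l2 was 2.25 to 2.47 on the non-induced arrays and 2.39 to 2.63 on the induced arrays.

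**Figure D2:**
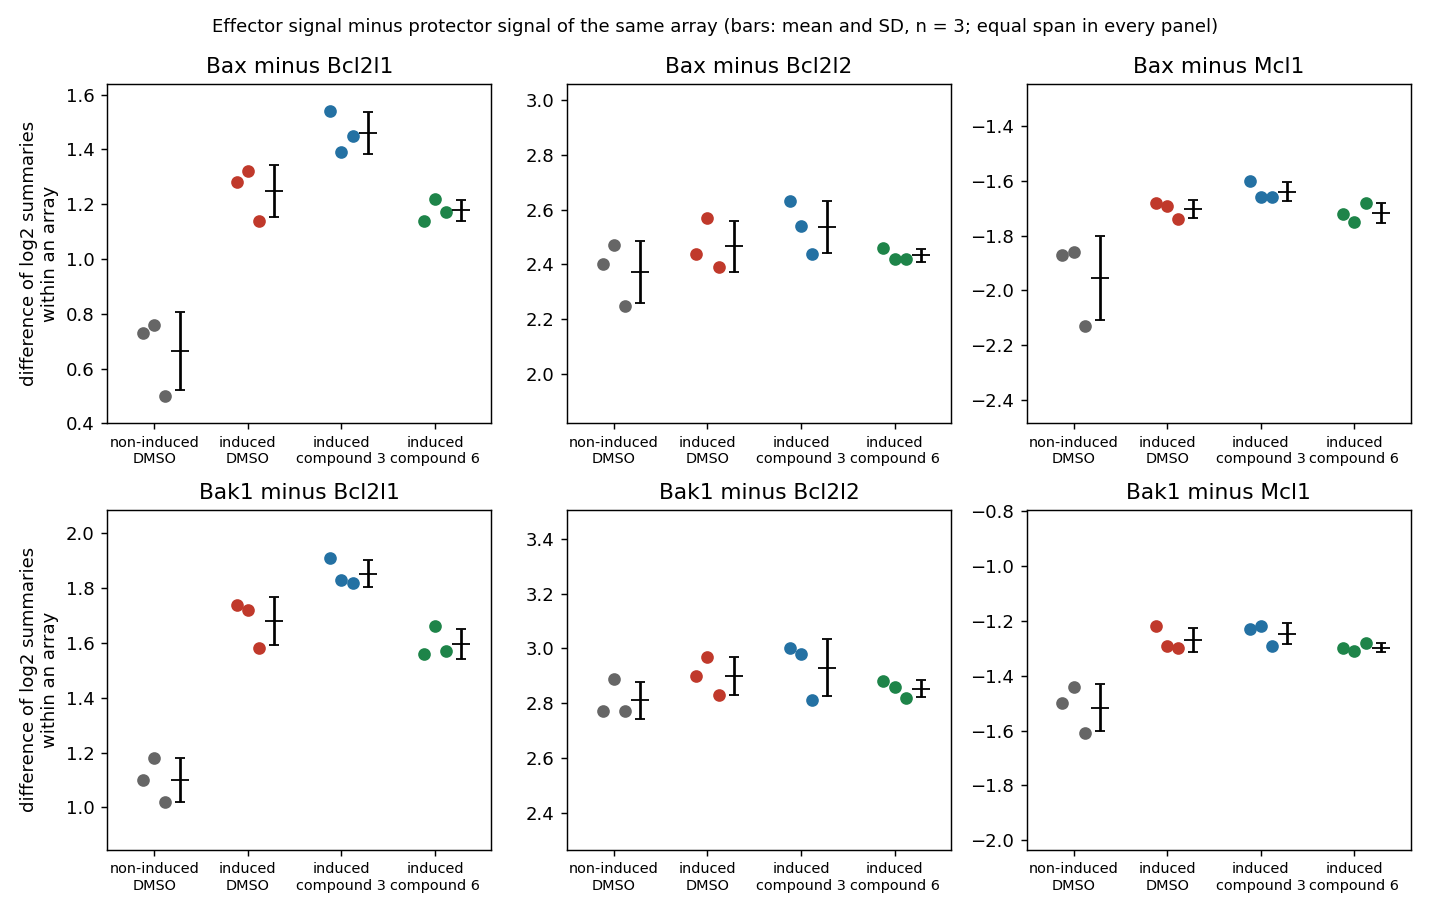
Difference between the log2 signal of an effector gene (Bax in the top row, Bak1 in the bottom row) and that of a protector (Bcl2l1, Bcl2l2 or Mcl1) on the same array, for 12 arrays in 4 groups, with the mean and SD of 3 arrays. For Bax minus Bcl2l1 the non-induced arrays lie between 0.50 and 0.76 and the induced arrays between 1.14 and 1.54, and the shift is smaller against Bcl2l2 and Mcl1.

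The compounds were each compared with vehicle in induced cells, both against the same 3 vehicle arrays, to ask what each changes once the fragment is on. No member passed for either. With compound 3 limma called 0 of 9 members, where 0.0232% of all features were called. At an unadjusted p under 0.05 there was 1, against 7.29% of all features, and in 2 (Bcl2l1 and Bcl2l11) the groups did not overlap, against 9.94%. The member with the smallest p was Bcl2l1, at 7.18, 7.21 and 7.15 with compound 3 against 7.25, 7.31 and 7.37 with vehicle. These arrays did not overlap, and the difference was -0.13 ± 0.05 (95% interval -0.24 to -0.02, adjusted p = 0.59). Bid, at 8.72, 8.82 and 8.69 with compound 3, differed from vehicle by 0.10 ± 0.07 (adjusted p = 0.812), and Bax, at 8.72, 8.60 and 8.60, by 0.08 ± 0.07 (adjusted p = 0.84). For both genes the groups overlapped. Differences of the other 6 tested members ran from -0.04 (Bcl2l11) to 0.04 (Bak1).

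With compound 6 limma called 0 of 9 members, where 0.00291% of all features were called, and 0 at an unadjusted p under 0.05, against 5.66%. All 9 members overlapped between compound 6 and vehicle, while 8.04% of all features did not. Bak1, at 8.90, 8.95 and 8.85 with compound 6, differed by -0.09 ± 0.05 (95% interval -0.20 to 0.02, adjusted p = 0.89). Bax, at 8.48, 8.51 and 8.45, differed by -0.08 ± 0.07 (95% interval -0.22 to 0.07, adjusted p = 0.955). Bcl2l1, at 7.34, 7.29 and 7.28, and Bid, at 8.53, 8.75 and 8.62, each differed by -0.01. The 95% intervals of the 9 members lay within -0.24 and 0.25 for compound 3 and within -0.22 and 0.16 for compound 6, and larger changes than these lie outside them.

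The analogues were given at the same dose for the same time, so they were also compared with each other, as 1 pair of compounds. No member passed. Limma called 0 of 9, where 0.0436% of all features were called, and 3 at an unadjusted p under 0.05, against 8.14%. Those 3 were Bak1, Bcl2l1 and Bax, and in each the arrays of the compounds did not overlap, which held for 14.0% of all features. Bax was lower with compound 6 than with compound 3 by 0.16 ± 0.07 (95% interval of the difference -0.31 to -0.01, adjusted p = 0.559). Bak1 was lower by 0.13 ± 0.05 (95% interval of the difference -0.24 to -0.02, adjusted p = 0.482). Bcl2l1 was higher with compound 6 by 0.12 ± 0.05 (95% interval 0.01 to 0.23, adjusted p = 0.525). In these 3 genes the compound 6 arrays were nearer to the non-induced arrays than the compound 3 arrays were. The chromaffin markers ran the same way, with all 7 lower with compound 3 than with compound 6 and no overlap, although none passed (lowest adjusted p = 0.134), and their part in these differences was not tested. Bid differed by -0.11 ± 0.07 (adjusted p = 0.797) and Bcl2l11 by 0.08 ± 0.06 (adjusted p = 0.837), both with overlap. Mcl1, Bcl2l2, Bbc3 and Bad differed by -0.08, -0.06, -0.03 and -0.01. A p above the threshold does not show that the analogues act alike, and the intervals of the 9 members reached from -0.31 to 0.23.

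**Figure D3:**
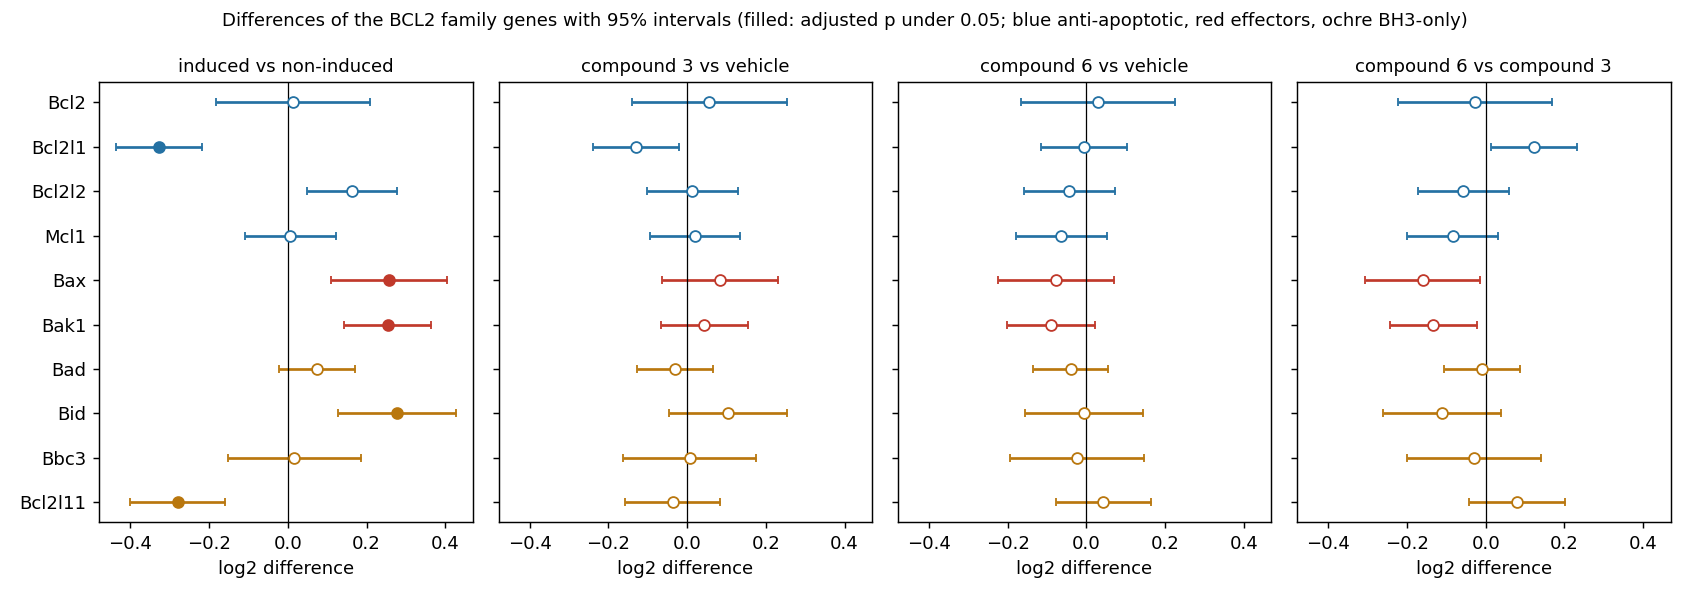
Log2 differences of the 10 genes with 95% intervals in 4 comparisons, filled where the adjusted p was under 0.05 and coloured by role. Only the comparison of induced with non-induced cells holds filled points (Bcl2l1, Bax, Bak1, Bid and Bcl2l11), and Bcl2 is drawn from the fit without a filter.

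Compound 3 cells were also compared with non-induced cells, a control that the comparison on induction uses too. Of 9 members 6 were called, 4 higher and 2 lower, where 15.2% of all features were called (8.34% higher and 6.82% lower). With the 75th percentile filter 5001 of 17216 features were called. Bcl2l1 was lower by 0.46 ± 0.05 (adjusted p = 0.000135) and Bcl2l11 by 0.32 ± 0.06 (adjusted p = 0.00238). Bid was higher by 0.38 ± 0.07 (adjusted p = 0.00284), Bax by 0.34 ± 0.07 (adjusted p = 0.00491) and Bak1 by 0.30 ± 0.05 (adjusted p = 0.00205). These 5 calls were made under all 22 alternatives. All 7 chromaffin markers fell in this comparison too. Bcl2l2 was higher by 0.18 ± 0.05 (adjusted p = 0.0422), but this call was lost in 14 of 21 alternatives, among them the fits without any 1 compound 3 array (adjusted p = 0.0881, 0.0606 and 0.155 without arrays 1, 2 and 3), without non-induced array 2 (0.168) or 3 (0.131), without vehicle array 2 (0.0525) and without any 1 compound 6 array (0.0524 to 0.0597). With the replicate number as a block its adjusted p was 0.0532.

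Compound 6 cells had 3 of 9 members called against non-induced cells, 1 higher and 2 lower, where 7.68% of all features were called (3.58% higher and 4.10% lower), and 5 of the 7 chromaffin markers fell. With the 75th percentile filter 2892 of 17216 features were called. Bcl2l1 was lower by 0.33 ± 0.05 (adjusted p = 0.00289), a call made under all 22 alternatives. Bid was higher by 0.27 ± 0.07 (adjusted p = 0.0340) and Bcl2l11 lower by 0.24 ± 0.06 (adjusted p = 0.0236). Bid's call was lost in 8 of 22 alternatives, among them no filter (adjusted p = 0.0848) and cyclic loess (0.0590). It was also lost without non-induced array 1 (adjusted p = 0.0597), 2 (0.107) or 3 (0.114). The same held without compound 6 array 2 (0.140) or 3 (0.0846) and without compound 3 array 1 (0.0503). The Bcl2l11 call was lost in 6 of 22, among them no filter (0.0711) and the fit of the 2 groups alone (0.0761). It was also lost without non-induced array 1 (adjusted p = 0.0671) or 3 (0.0627) and without compound 6 array 2 (0.104) or 3 (0.0819). Leaving out any 1 of these 4 arrays left 1 member called. Bak1 and Bax lay higher by 0.16 ± 0.05 (adjusted p = 0.0789) and 0.18 ± 0.07 (adjusted p = 0.148) and did not pass, although no array overlapped, which held for 27.3% of all features. With the replicate number as a block Bak1 passed (adjusted p = 0.0434).

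Most of the wider death machinery did not pass on induction. Of 73 genes in 6 lists (other BCL2 family genes, the apoptosome and caspases, IAP proteins, the death receptor pathway, transcription factors acting on BCL2 family genes, and kinases, ligases and binding partners of BCL2 family proteins), 64 were tested. On induction 2 rose and 2 fell, which is not above the 9.06% called among all features, and their median difference was -0.01 against 0.01 over all features. At an unadjusted p under 0.05 there were 19 of the 64, against 21.0% of all features. Of 10 other BCL2 family genes 0 passed, 4 at an unadjusted p under 0.05, with Bnip3, a mitophagy receptor, and Bok, a relative of Bax and Bak1, both at -0.19 (adjusted p = 0.0965 and 0.137). Noxa (Pmaip1), Bcl2a1 and Bcl2l15 lay under the filter. Of 5 IAP genes, which block caspases, 0 passed, 1 at an unadjusted p under 0.05, and of 9 death receptor genes 0 passed, 3 at an unadjusted p under 0.05.

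Among 11 apoptosome and caspase genes 1 rose, Casp6, an executioner caspase that is also known to cleave huntingtin. It stood at 6.59, 6.58 and 6.47 without and at 6.87, 6.96 and 7.01 with induction. The groups did not overlap and the rise was 0.40 ± 0.06 (1.32-fold, adjusted p = 0.00115), called under all 22 alternatives. A second feature named Casp6 rose by 0.46 ± 0.07 (adjusted p = 0.00131), and whether these features share probes was not tested. Casp6 stood at 6.86, 6.85 and 6.98 with compound 3 and at 6.80, 6.85 and 6.86 with compound 6. Among 20 kinases, ligases and partners 1 rose, Mapk9 (JNK2, a kinase that phosphorylates BCL2 family proteins), from 9.27, 9.19 and 9.18 to 9.43, 9.37 and 9.34. The groups did not overlap and the rise was 0.17 ± 0.04 (adjusted p = 0.0403). The Mapk9 call was lost in 13 of 22 alternatives, in 10 of them by leaving out 1 array (non-induced 2 or 3, vehicle 1 or 2, or any compound array, adjusted p 0.0508 to 0.152). For either compound against vehicle, and between the compounds, 0 of the 64 genes passed, with 4, 3 and 4 at an unadjusted p under 0.05, none of them above the 7.29%, 5.66% and 8.14% of all features.

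Against non-induced cells 10 of the 64 list genes were called with compound 3, 4 higher and 6 lower, which is near the 15.2% called over all features. Casp6 (0.35), Aifm1 (0.20, a mitochondrial flavoprotein released in cell death), Birc2 (0.22, the ubiquitin ligase cIAP1) and Mapk9 (0.25) rose. Bok (-0.31), Foxo3 (-0.35), Stat3 (-0.23), Mapk8 (-0.28, JNK1), the cell cycle factor E2f1 (-0.28) and Pim1 (-0.50, a kinase that phosphorylates Bad) fell, with adjusted p-values of the 10 from 0.00141 to 0.0215. Casp6, Foxo3, Stat3, Mapk8 and Mapk9 kept their calls in all 22 alternatives. Without compound 3 array 3 there were 6 calls, and those of Bok (adjusted p = 0.0581), Birc2 (0.0695), E2f1 (0.0944) and Pim1 (0.0911) were lost. The Aifm1 call was lost without non-induced array 3 (adjusted p = 0.0595). Birc2 was also lost without non-induced array 1 or compound 3 array 2, E2f1 without non-induced array 2 or 3 or compound 3 array 2, and Pim1 without non-induced array 1 or 3.

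With compound 6, 3 of the 64 were called, 2 higher and 1 lower, which is not above the 7.68% called over all features. These were Mapk9 (0.28), Casp6 (0.29) and Foxo3 (-0.31). The Foxo3 call was lost without non-induced array 2 or 3 or compound 6 array 1 or 2 (highest adjusted p = 0.0733), and that of Casp6 without non-induced array 3 (0.0506). There was 1 call without non-induced array 3, and 5 without vehicle array 1.

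**Figure D4:**
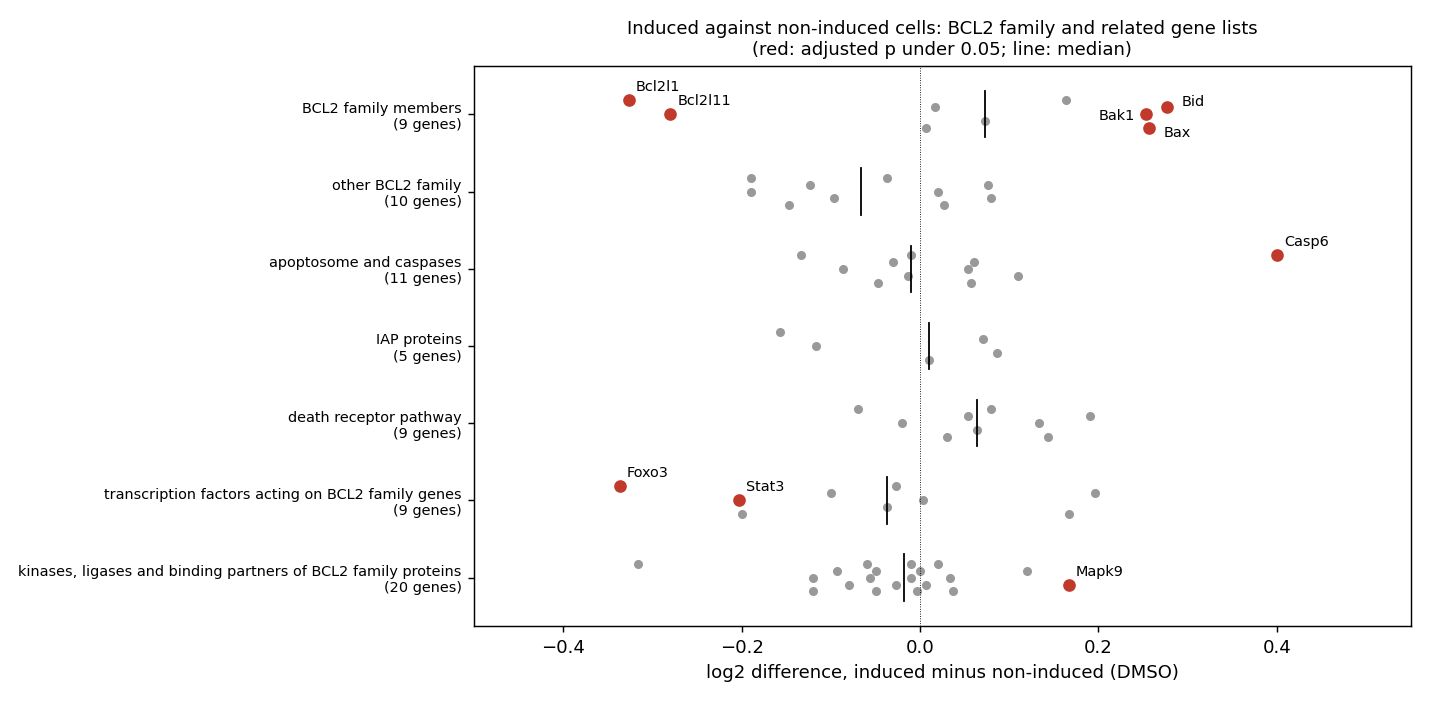
Log2 difference between induced and non-induced cells for the 9 tested BCL2 family members and the 64 tested genes of 6 related lists, with list medians as lines and genes at an adjusted p under 0.05 in red. The members hold 5 red points, the transcription factor list Foxo3 and Stat3, the caspase list Casp6 and the kinase list Mapk9.

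Among 9 transcription factors 0 rose and 2 fell, Foxo3 and Stat3. At an unadjusted p under 0.05 there were 6, against 21.0% of all features. Foxo3, a forkhead factor known to switch on Bcl2l11, stood at 8.93, 8.99 and 9.06 without and at 8.54, 8.71 and 8.72 with induction. It fell by 0.34 ± 0.07 (adjusted p = 0.0077) without overlap, a call made under all 22 alternatives. Foxo1, another FOXO factor of the list, ran the other way but was not called. It stood at 8.27, 8.25 and 8.23 without and at 8.31, 8.49 and 8.45 with induction, without overlap. Stat3, a cytokine-activated factor known to act on Bcl2l1, stood at 8.84, 8.74 and 8.74 without and at 8.55, 8.60 and 8.56 with induction, and fell by 0.20 ± 0.04 (adjusted p = 0.0144). That call was lost with no filter (adjusted p = 0.0583) and in the fit of those 2 groups alone (0.102).

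The promoters of members that moved are shown for the letters that Foxo3 and Stat3 are known to bind. They come from RefSeq on the rat assembly GRCr8 and hold 250 bases before and 50 from the start site on, and 8 of the 10 members had an entry, with 4 start sites for Bcl2l1. Both strands were searched for the FOXO pattern GTAAACA, found in 3.78% of 33469 rat promoters, the STAT pattern TTCNNNGAA (8.87%) and the GC box GGGCGG (33.1%). Capitals mark matches on either strand. A match is a description of the letters and not evidence of binding. In the sequence of Bcl2l11 the FOXO match begins at position -204 from the start site. For Bcl2l1 the third of its start sites, counted from upstream, is shown, since that window holds 2 STAT matches. The fourth window overlaps it and holds the same 2, while the windows of start sites 1 and 2 hold 0 STAT matches.
Bcl2l11, chr3:135819792-135820091, plus strand: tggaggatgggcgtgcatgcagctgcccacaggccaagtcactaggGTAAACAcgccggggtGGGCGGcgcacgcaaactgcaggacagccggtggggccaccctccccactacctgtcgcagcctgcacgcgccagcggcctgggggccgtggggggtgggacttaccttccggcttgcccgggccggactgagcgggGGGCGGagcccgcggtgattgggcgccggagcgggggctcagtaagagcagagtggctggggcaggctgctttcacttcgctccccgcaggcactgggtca
Bcl2l1, start site 3, chr3:161763336-161763635, minus strand: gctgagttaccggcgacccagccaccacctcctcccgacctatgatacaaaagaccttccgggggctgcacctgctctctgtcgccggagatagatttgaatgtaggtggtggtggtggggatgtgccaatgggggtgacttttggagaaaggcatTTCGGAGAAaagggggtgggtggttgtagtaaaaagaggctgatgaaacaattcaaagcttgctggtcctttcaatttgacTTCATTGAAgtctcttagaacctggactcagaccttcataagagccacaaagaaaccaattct
Bid, chr4:155808270-155808569, minus strand: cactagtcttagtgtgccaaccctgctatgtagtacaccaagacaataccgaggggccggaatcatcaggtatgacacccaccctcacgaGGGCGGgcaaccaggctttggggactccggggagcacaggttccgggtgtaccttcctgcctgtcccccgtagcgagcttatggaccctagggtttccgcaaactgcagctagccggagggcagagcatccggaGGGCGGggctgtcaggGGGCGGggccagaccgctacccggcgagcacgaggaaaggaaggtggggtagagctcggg
Bak1, chr20:5110925-5111224, minus strand: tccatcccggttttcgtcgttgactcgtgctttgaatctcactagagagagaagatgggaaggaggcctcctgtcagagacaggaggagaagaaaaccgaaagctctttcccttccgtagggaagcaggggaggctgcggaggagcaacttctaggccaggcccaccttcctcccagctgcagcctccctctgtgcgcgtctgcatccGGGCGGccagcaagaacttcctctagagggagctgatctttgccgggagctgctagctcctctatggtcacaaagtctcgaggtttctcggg

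GC boxes stood in members that rose, that fell and that did not pass. FOXO and STAT matches stood only in Bcl2l11, Bcl2l1 and Bad. Bid and Bak1, which rose, held 0 of either, and Bax had no entry. Bcl2l1 was searched over 4 windows and each other member over 1, so the genes were not searched alike. Bad, which did not pass, held both a FOXO and a STAT match. GC boxes stood in Bcl2l11 (2 matches) and at the Bcl2l1 start site 2 (1), genes that fell, in Bid and Bak1, which rose (3 and 1), and in Mcl1 and Bcl2l2, which did not pass (1 each). The patterns TGACGTCA (CRE, in 1.83% of promoters), TGANTCA (AP-1, 7.33%) and GCGGGAA (E2F, 4.21%) were in none of the 11 windows of the members. The Bcl2l11 window was 71.0% G and C, against a median of 51.7% over all promoters, and the windows of Bid, Bak1 and the third Bcl2l1 start site were 63.3%, 57.7% and 49.7%.

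Of the members, Bcl2l1 had the smallest p in the F-test, so the genes closest to its pattern were looked up over the 12 arrays. The 3 single-symbol genes with the highest Pearson correlation were Patz1, a zinc-finger transcription regulator, and the polo-like kinase Plk3, at 0.992 each, and the LIM homeobox gene Lhx4, at 0.991. They fell on induction by 0.45, 0.59 and 0.35 (adjusted p = 0.000679, 0.000277 and 0.00225). They were picked as the closest of 16054 features on the same arrays, whose 4 groups set most of the pattern, and no p is attached to the likeness.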

How the data were processed

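Total RNA (250 ng per sample) from 12 PC12 samples in 4 labelled groups of 3 was hybridised to the Affymetrix Rat Transcriptome Array 1.0, 1 sample per array. The authors deposited log2 expression summaries; per the submitters' processing notes, the tools were RMA and Affymetrix Expression Console, whose versions and options are not given in the sources used here. All 12 columns matched a sample, no pair of arrays was identical (0 pairs), and values ran from 0.95 to 13.82. RMA usually equalises array distributions, so a shift of most genes may not show in full. The deposited arrays were not fully equal, with 95th percentiles from 10.09 to 10.32, and the part of this in the differences was not tested.

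Of 70580 features 1738 controls were left out, and 34422 of 68842 were kept at or above the median of the 12-array means (4.63). Symbols came from the platform annotation, checked against RefSeq (GRCr8): 23446 features had 1 symbol, 505 several and 44891 none. Limma 3.58.1 in R 4.3.3 (lmFit, contrasts.fit, eBayes) fitted 4 group means on all 12 arrays (8 residual and 3.27 prior degrees of freedom); p-values were adjusted over all features kept. The fit was tried on simulated data with noise drawn independently for each array. The condition to pass covered only changes of 1 log2 unit, larger than those of the members, so it does not bear on the calls of small changes. Same-numbered arrays deviated together, every pair above 0.1, in 1 of the 6 group pairings (compound 3 and non-induced cells), for which blocked values are given where they change a call. Bcl2 was fitted without the filter. The genes named are the 10 members, list genes that passed (at most 4 per list and comparison) and the 3 closest to the leading member. The chromaffin markers were a fixed list, and Bnip3, Bok, Pmaip1, Bcl2a1, Bcl2l15, Foxo1 and Bad's promoter matches were named after their values were seen. The members and lists were chosen with earlier results of these data known. Alternatives were no filter, a 75th percentile filter, cyclic loess, quantile normalisation, median scaling, array weights, a trended robust prior, a replicate block, only the 2 groups compared, the mean of all features of a gene and leaving out each array. Each member had 1 feature, so the mean of features could not alter its difference. Leaving out an array of a group outside a comparison changes only the spread and not the difference. Figures used Python 3.11.15 and matplotlib 3.10.9.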

Additional observations from a re-analysis of the deposited data

How the results depend on the processing

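Of the 14 calls of a member in a comparison, 7 were made under every alternative run and 0 changed sign. Of the 40 member differences that did not pass, 2 passed under some alternative and 14 changed sign under at least 1. For the compounds against vehicle and against each other, members and list genes stayed at 0 calls under all 22 alternatives. Members called on induction (5 as reported) numbered 3 with no filter and 1 in the fit of those 2 groups alone, and 3 to 6 when 1 array was left out. For compound 6 against non-induced cells (3 as reported) 1 was called with no filter and 1 to 3 when 1 array was left out. For compound 3 against non-induced cells the count of 6 ran from 5 to 6 over all alternatives. The F-test's 5 members became 2 to 5 when 1 array was left out. List genes called on induction (4 as reported) numbered 2 with no filter, 2 in the fit of those 2 groups alone and 11 with array weights, and 3 to 6 when 1 array was left out. Those of compound 3 against non-induced cells (10) numbered 17 with array weights and 6 to 11 when 1 array was left out, and those of compound 6 (3) numbered 6 with the 75th percentile filter, 7 with array weights and 1 to 5 when 1 array was left out. Fewer arrays or more features tested are part of those settings; otherwise the cause was not tested.

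The replicate numbers paired the arrays in part: 10 of 18 same-numbered pairs had deviations correlated above 0.1 (range -0.17 to 0.45). All 6 pairs of arrays numbered 1 did (0.219 to 0.452), and so did all 3 pairs of compound 3 with non-induced cells, but no other comparison met this in every pair. An array was closest to its own number in 20 of 36 comparisons with another group, where 12 would be without pairing. With the replicate number as a block 5 members were called on induction, 0 for either compound against vehicle or between compounds, 5 for compound 3 and 4 for compound 6 against non-induced cells, with the changed member calls those of Bcl2l2 and Bak1, and 3342 features in all on induction in place of 3120. No scaling moved the median of all features by over 0.1.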
